A study of Homo sapiens with 12 samples.

Results

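The genes described here are 10 that encode feedback inhibitors of growth factor signalling through the kinase ERK, or products of the same feedback response: the Sprouty genes SPRY1, SPRY2, SPRY3 and SPRY4, the Sprouty-related genes SPRED1, SPRED2 and SPRED3, and IL17RD, PHLDA1 and IER3. They were taken by name, by matching their Ensembl identifiers to the rows of the count table, and make up 10 of 58302 genes counted. All 10 passed the filter on low counts in a set of 23238 genes that were tested.

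RNA was counted in 12 libraries from prostate cancer cells of the lines 22Rv1, which expresses the androgen receptor, and PC3, which derives from a bone metastasis and lacks the receptor. Every culture was infected with a lentivirus built on an MSCV vector that carried eGFP behind an internal ribosome entry site. In front of it stood a mutated form of the ETS transcription factor ETV4 (ETV4AAA), wild-type ETV4 (ETV4WT), or nothing (eGFP, the control vector). After 1 week, live cells positive for eGFP were sorted, so that the control libraries also come from infected and sorted cells. Each of the 6 groups of line and construct holds n = 2 libraries, and which positions are altered in ETV4AAA is not stated in the labels. Nothing in the labels ties the replicates to separate cultures, so the p-values below measure the spread between these libraries, which may be technical.

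Growth factors bind receptor tyrosine kinases, which activate RAS and, through further kinases, ERK, and ERK then switches on a set of genes that restrain the cascade. Sprouty proteins bind adaptors such as GRB2 and lower the activation of RAS and of the kinases after it. SPRED proteins carry a Sprouty-like domain, sit at the membrane, and bring the RAS inactivator neurofibromin to it. IL17RD, also called SEF, is a transmembrane protein known for inhibiting signalling of FGF receptors. PHLDA1 is a pleckstrin-homology-like protein induced by growth factors and reported to inhibit ERBB receptors. IER3 is an immediate early protein and ERK substrate that is reported to prolong ERK activity, so that it belongs to the response without being an inhibitor of it. ETV4, with ETV1 and ETV5, forms the PEA3 group of ETS factors, which bind DNA at sites built around GGAA and act downstream of the same cascade.

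Because 9 of these genes moved together in 22Rv1 libraries with ETV4AAA, start site windows of 3 members are shown: SPRY4 and PHLDA1, with the greatest changes there, and SPRED2, the one member that moved the other way. Each runs from 250 bases before to 50 bases after a RefSeq start site on GRCh38.p14, 5′ to 3′ along the gene, and capitals mark GGAA or, for a match on the other strand, TTCC. All 3 genes lie on the minus strand, with windows at chr5:142324198-142324497 for SPRY4, chr12:76031727-76032026 for PHLDA1 and chr2:65432550-65432849 for SPRED2.
SPRY4: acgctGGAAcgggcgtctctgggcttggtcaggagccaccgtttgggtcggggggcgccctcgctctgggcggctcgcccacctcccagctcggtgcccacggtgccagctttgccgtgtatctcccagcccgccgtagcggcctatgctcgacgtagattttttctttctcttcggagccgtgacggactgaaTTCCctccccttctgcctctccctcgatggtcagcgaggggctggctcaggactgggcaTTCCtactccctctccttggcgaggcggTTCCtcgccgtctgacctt
PHLDA1: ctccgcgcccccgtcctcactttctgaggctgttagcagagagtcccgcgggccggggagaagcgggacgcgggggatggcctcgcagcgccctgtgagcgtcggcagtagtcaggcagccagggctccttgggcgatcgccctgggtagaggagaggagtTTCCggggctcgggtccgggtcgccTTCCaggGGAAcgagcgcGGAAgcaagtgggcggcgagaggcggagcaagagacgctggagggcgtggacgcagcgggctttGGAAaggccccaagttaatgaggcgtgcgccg
SPRED2: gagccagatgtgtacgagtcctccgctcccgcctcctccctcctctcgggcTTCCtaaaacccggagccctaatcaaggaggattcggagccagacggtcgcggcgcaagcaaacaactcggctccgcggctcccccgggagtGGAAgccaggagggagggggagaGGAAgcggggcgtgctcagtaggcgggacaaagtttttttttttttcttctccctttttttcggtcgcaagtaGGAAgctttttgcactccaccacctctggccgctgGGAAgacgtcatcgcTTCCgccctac
The GGAA core, searched on both strands, occurs 4 times in the SPRY4 window, 5 times in the PHLDA1 window and 6 times in the SPRED2 window. Among 35116 promoters of the same length, 95.5% hold it, with a median of 3 matches, so its presence is common to nearly all genes. The longer form CGGAAG, which contains the core, is absent from the SPRY4 window and present once in each of the other windows shown, against 19.5% of all promoters. AGGAAG, another form that contains the core, was found 3 times in the SPRED2 window and in neither of the others, against 33.6% of all promoters. Over the 16 RefSeq windows of the 9 members that have one, the number of GGAA matches ran from 1 to 6. The AP-1 motif TGANTCA occurred in 1 window of SPRED3 and 1 of SPRED2, neither of them printed here, against 7.71% of all promoters. No promoter of IER3 was matched.

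Library totals were 41698738 to 50226044 counts in 22Rv1 and 43572713 to 51199207 counts in PC3. Levels are CPM (counts scaled to the library total), and changes are log2 fold changes ± SE with Benjamini-Hochberg adjusted p from edgeR's quasi-likelihood test over all genes tested. ETV4 itself had 390 and 281 CPM in 22Rv1 ETV4AAA libraries, 385 and 484 CPM in 22Rv1 ETV4WT libraries, and 31.2 and 24.9 CPM in 22Rv1 eGFP libraries. In PC3 it had 223 and 109 CPM in the libraries labelled ETV4AAA and 215 and 112 CPM in those labelled ETV4WT, against 116 and 126 CPM in eGFP libraries. Replicate 2 of both PC3 constructs was therefore not above the control vector in ETV4, so PC3 results are also given without those libraries. That fit leaves 1 library in each PC3 construct group, which is assumed to vary like the other groups. The counts do not separate introduced from endogenous ETV4. Other genes also shifted between replicates 1 and 2 of both PC3 constructs, and these deviations correlated at 0.494 over all genes tested. IER3, at 13.3 and 8.61 CPM labelled ETV4AAA and 22.3 and 12.1 CPM labelled ETV4WT, was lower in replicate 2, whereas SPRED1 was higher. Whether the lower ETV4 of replicate 2 is part of that shift was not tested. The androgen receptor target KLK3, a 22Rv1 marker, was at 19.8 to 53.3 CPM in 22Rv1 libraries and at 0 in every PC3 library. The 7 genes fixed as 22Rv1 markers summed to 1515 to 2109 CPM in 22Rv1 libraries and 408 to 838 CPM in PC3 libraries. HOXB13 among them did not separate the lines, with means of 656 CPM in 22Rv1 eGFP libraries and 605 CPM in PC3 eGFP libraries. Immune cell markers, 5 genes taken with the haemoglobin gene HBB, summed to at most 0.656 CPM. The 6 stromal and endothelial markers were not absent, with sums of 28.1 to 42.5 CPM in PC3 libraries and 7.21 to 11.3 CPM in 22Rv1 libraries. The sorted cells are whole populations, in which a change in RNA per cell cannot be told apart from a change in the share of cells that express the gene.

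In 22Rv1, ETV4AAA raised 9 of the 10 genes above the eGFP control and lowered SPRED2. Over all genes tested, 31.8% were called in this comparison, 17.4% higher and 14.4% lower. The members' median log2 change was 2.66, against 0.00 for all genes. With ETV4WT, only SPRY4 and PHLDA1 passed the test against eGFP, both higher, where 1.5% of all genes were called, 1.06% higher and 0.439% lower. Set directly against ETV4WT, ETV4AAA gave higher levels of the same 9 genes and a lower level of SPRED2, where 23.5% of all genes were called, 13.9% higher and 9.62% lower. These comparisons share libraries, so the levels with each construct are given side by side for each gene. Libraries of 2 groups often did not overlap, also for genes that were not called. Of all genes tested in 22Rv1, this held for 65.4% with ETV4AAA over eGFP, 45.5% with ETV4WT over eGFP and 61.2% between the constructs. In PC3 the shares were 53.9%, 64% and 44.1% in the same order.

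SPRY4, a Sprouty protein that acts on the cascade after its receptors, moved most among the members with ETV4AAA. It had 493 and 422 CPM in 22Rv1 ETV4AAA libraries, 20.4 and 25.7 CPM in ETV4WT libraries, and 11.9 and 10.3 CPM in eGFP libraries. The 3 groups did not overlap, with ETV4AAA far above the others and ETV4WT a little above eGFP. ETV4AAA raised SPRY4 by log2 5.36 ± 0.16 over eGFP (41.1-fold, adjusted p = 9.07e-10) and by 4.31 ± 0.15 over ETV4WT (adjusted p = 6.8e-09). The rise with ETV4WT over eGFP was 1.05 ± 0.14 (adjusted p = 0.00234), and it missed the threshold without eGFP replicate 2 (adjusted p = 0.0512).

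SPRY1 and SPRY2, which encode Sproutys that bind GRB2, passed against eGFP with ETV4AAA and not with ETV4WT. SPRY1 had 54.6 and 55.1 CPM with ETV4AAA, 8.60 and 7.70 CPM with ETV4WT, against 6.03 and 6.53 CPM with eGFP. SPRY2 had 114 and 102 CPM with ETV4AAA, 21.0 and 20.6 CPM with ETV4WT, against 17.2 and 17.1 CPM with eGFP. For both genes the ETV4WT libraries lay just above the eGFP libraries without overlap, and the ETV4AAA libraries lay several-fold higher. The changes with ETV4AAA over eGFP were log2 3.13 ± 0.13 for SPRY1 (adjusted p = 8.73e-09) and 2.65 ± 0.12 for SPRY2 (adjusted p = 1.86e-08). With ETV4WT over eGFP they were 0.38 ± 0.13 for SPRY1 (adjusted p = 0.199) and 0.28 ± 0.12 for SPRY2 (adjusted p = 0.301), below the threshold in each case.

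SPRY3, the least studied Sprouty, was low in 22Rv1 except with ETV4AAA. It had 14.2 and 14.8 CPM in 22Rv1 ETV4AAA libraries, 1.72 and 2.39 CPM in ETV4WT libraries, and 1.91 and 2.64 CPM in eGFP libraries. The ETV4WT and eGFP libraries overlapped. ETV4AAA raised SPRY3 by log2 2.67 ± 0.22 over eGFP (adjusted p = 2.59e-06) and by 2.81 ± 0.23 over ETV4WT (adjusted p = 2.32e-06), and ETV4WT gave -0.14 ± 0.23 over eGFP (adjusted p = 0.836). SPRY3 lies in a region shared by the X and Y chromosomes and has a copy on each. Values here are those of the X row, and how reads that match both copies were counted is not stated in the labels.

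The SPRED genes did not move as a block. SPRED1, which recruits neurofibromin and is mutated in Legius syndrome, had 56.3 and 49.8 CPM in 22Rv1 ETV4AAA libraries, 18.2 and 17.6 CPM in ETV4WT libraries, and 23.9 and 25.3 CPM in eGFP libraries. Its ETV4AAA libraries were the highest and its ETV4WT libraries the lowest. SPRED1 rose by log2 1.11 ± 0.14 with ETV4AAA over eGFP (adjusted p = 6.27e-05), and ETV4WT gave -0.46 ± 0.14 (adjusted p = 0.149), which did not pass.

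SPRED2, a second neurofibromin-binding member, went the other way. It had 23.3 and 22.3 CPM with ETV4AAA, 27.0 and 32.8 CPM with ETV4WT, against 42.7 and 41.6 CPM with eGFP. Each construct's libraries lay below the eGFP libraries, with ETV4AAA lowest. SPRED2 fell by 0.88 ± 0.13 on the log2 scale with ETV4AAA against eGFP (adjusted p = 0.000217), while ETV4WT gave -0.50 ± 0.13 (adjusted p = 0.0854), which passed without ETV4WT replicate 2 (-0.65, adjusted p = 0.0437). Its difference between ETV4AAA and ETV4WT, log2 -0.39 ± 0.13 (adjusted p = 0.0443), was not stable. It missed the threshold without ETV4AAA replicate 1 (adjusted p = 0.0944), without ETV4AAA replicate 2 (adjusted p = 0.136), without ETV4WT replicate 2 (adjusted p = 0.185) and in 5 other fits, where adjusted p ran from 0.0611 to 0.199.

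SPRED3, which lacks a functional KIT-binding domain, was near the bottom of the 22Rv1 range at 3.48 and 2.47 CPM with ETV4AAA, 1.68 and 1.84 CPM with ETV4WT, against 1.76 and 1.61 CPM with eGFP. Only the ETV4AAA libraries stood apart. The change was log2 0.82 ± 0.22 over eGFP (adjusted p = 0.0127) and 0.76 ± 0.22 over ETV4WT (adjusted p = 0.0243). Without ETV4AAA replicate 1 these became 0.53 (adjusted p = 0.159) and 0.48 (adjusted p = 0.255). The call over eGFP was also lost without eGFP replicate 1 (adjusted p = 0.0573) or eGFP replicate 2 (adjusted p = 0.0977), and the call over ETV4WT without ETV4WT replicate 1 (adjusted p = 0.149) or ETV4WT replicate 2 (adjusted p = 0.0885).

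IL17RD, the inhibitor of FGF receptor signalling, had 65.8 and 54.7 CPM in 22Rv1 ETV4AAA libraries, 19.2 and 21.1 CPM in ETV4WT libraries, and 26.2 and 28.1 CPM in eGFP libraries. As with SPRED1, the ETV4WT libraries were the lowest. ETV4AAA raised IL17RD by log2 1.15 ± 0.14 over eGFP (adjusted p = 7.86e-05) and by 1.58 ± 0.15 over ETV4WT (adjusted p = 7.72e-06), and the ETV4WT change of -0.43 ± 0.14 (adjusted p = 0.193) did not pass.

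PHLDA1 followed SPRY4 in size. It had 104 and 96.6 CPM with ETV4AAA, 10.5 and 10.4 CPM with ETV4WT, against 3.18 and 3.13 CPM with eGFP in 22Rv1. The steps between the 3 groups were far wider than the spread within any of them. The log2 change was 4.99 ± 0.15 with ETV4AAA (31.8-fold, adjusted p = 6.4e-10) and 1.73 ± 0.13 with ETV4WT (adjusted p = 4.24e-05) over eGFP, and 3.26 ± 0.13 between ETV4AAA and ETV4WT (adjusted p = 1.33e-08). All 3 calls held in each fit that left out 1 library.

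IER3 had 13.6 and 9.16 CPM in 22Rv1 ETV4AAA libraries, 1.50 and 1.43 CPM in ETV4WT libraries, and 1.37 and 1.11 CPM in eGFP libraries. The ETV4AAA replicates differed more from each other than those of most members, yet both stood well clear of the other groups. IER3 rose by log2 3.20 ± 0.34 with ETV4AAA (adjusted p = 1.93e-05), and ETV4WT gave 0.24 ± 0.35 (adjusted p = 0.817).

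Markers of the other line were measured beside these changes. Of the markers fixed for PC3, CD44 was the most abundant of those given here in 22Rv1, at 430 and 427 CPM in ETV4AAA libraries, 255 and 249 CPM in ETV4WT libraries and 120 and 129 CPM in eGFP libraries. CAV1, which forms caveolae, had 10.3 and 11.2 CPM with ETV4AAA, 2.70 and 2.04 CPM in ETV4WT libraries and 2.32 and 3.85 CPM in eGFP libraries of 22Rv1. VIM, an intermediate filament protein, had 11.6 and 12.5 CPM with ETV4AAA, 7.75 and 7.41 CPM in ETV4WT libraries and 6.24 and 7.23 CPM in eGFP libraries of that line. CAV2, a partner of CAV1 in caveolae, had 1.84 and 1.80 CPM with ETV4AAA, 0.544 and 0.286 CPM in ETV4WT libraries and 0.369 and 0.556 CPM in eGFP libraries of 22Rv1. All 4 were thus higher in both 22Rv1 ETV4AAA libraries than in either eGFP library, and their part in the members' changes was not tested. AXL was at 0.0222 and 0.0237 CPM in 22Rv1 ETV4AAA libraries, against 12.5 and 8.15 CPM in PC3 ETV4AAA libraries. MET, a receptor abundant in PC3, was at 3.70 and 3.30 CPM in 22Rv1 ETV4AAA libraries, against 472 and 553 CPM in PC3 ETV4AAA libraries. It was also below the 11.1 and 12.9 CPM of 22Rv1 eGFP libraries. SPRY4, at 457 ± 50.1 CPM in 22Rv1 ETV4AAA libraries, was at a level overlapping that of PC3 libraries with ETV4WT.

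**Figure D1:**
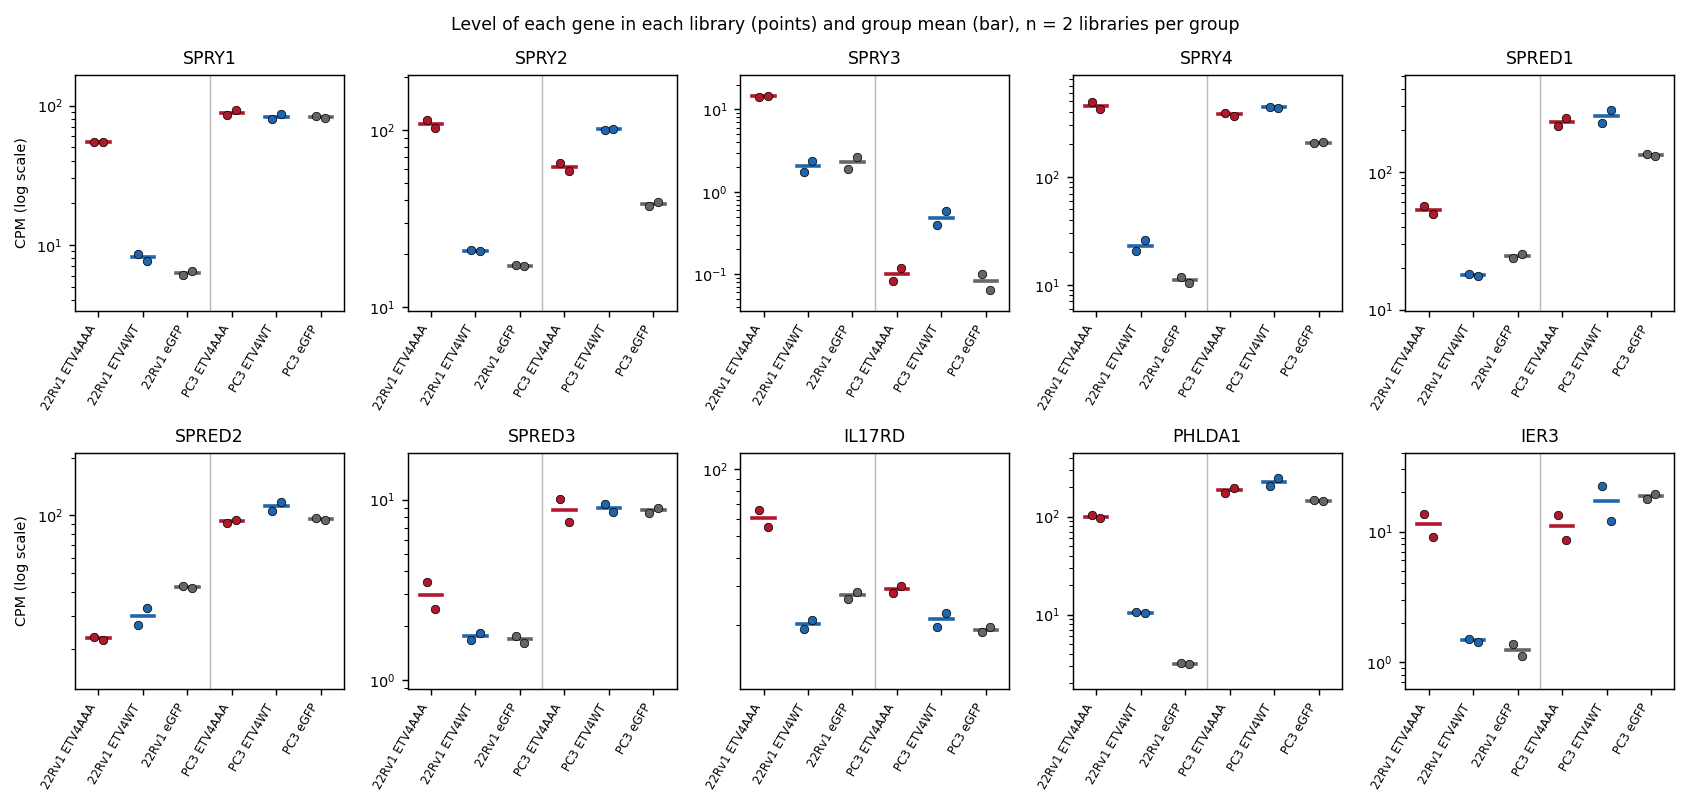
CPM of each of the 10 genes in every library, on log axes, with groups of 22Rv1 (ETV4AAA, ETV4WT, eGFP) left of those of PC3; points are single libraries and bars the mean of 2. In 22Rv1, SPRY4 sits at 493 and 422 CPM with ETV4AAA and between 10.3 and 25.7 CPM with the other constructs, while SPRED2 is lowest with ETV4AAA.

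In PC3, where 8 of these genes start higher, 5 members were higher in the libraries labelled ETV4WT than in eGFP libraries (SPRY2, SPRY3, SPRY4, SPRED1 and PHLDA1), and the others did not pass. Of all genes tested, 23.4% were called in this comparison, 12.7% higher and 10.7% lower. The libraries labelled ETV4AAA had 4 members above eGFP (SPRY2, SPRY4, SPRED1 and IL17RD), where 3.69% of all genes were called, 2.45% higher and 1.24% lower. Between libraries labelled ETV4AAA and ETV4WT, SPRY2 and SPRY3 were lower with ETV4AAA, where 11% of all genes were called, 3.65% higher and 7.32% lower. The median log2 change of the members was 0.30 with ETV4AAA and 0.43 with ETV4WT over eGFP, and -0.24 between the constructs, against 0.00 for all genes in each comparison.

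SPRY2 was the Sprouty with the clearest order in PC3. It had 64.8 and 58.7 CPM in libraries labelled ETV4AAA, 100.1 and 102 CPM in libraries labelled ETV4WT, and 37.4 and 39.3 CPM in eGFP libraries, with no overlap between groups. ETV4WT gave log2 1.39 ± 0.12 over eGFP (adjusted p = 8.66e-06), ETV4AAA gave 0.69 ± 0.12 over eGFP (adjusted p = 0.00615), and ETV4AAA was below ETV4WT by log2 -0.71 ± 0.12 (adjusted p = 0.00183). Without replicate 2 of both constructs these were 1.47 for ETV4WT over eGFP, 0.75 for ETV4AAA over eGFP and -0.72 for ETV4AAA over ETV4WT, each still called, although the last sets 1 library against 1 with the spread taken from the other groups. The replicate 2 libraries thus had SPRY2 levels close to those of replicate 1, although their ETV4 was at the eGFP level.

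SPRY4 had 391 and 367 CPM in PC3 libraries labelled ETV4AAA, 445 and 437 CPM in those labelled ETV4WT, and 205 and 209 CPM in eGFP libraries. Its changes over eGFP were log2 0.87 ± 0.13 with ETV4AAA (adjusted p = 0.00343) and 1.09 ± 0.14 with ETV4WT (adjusted p = 0.000138), and 0.92 with ETV4AAA and 1.20 with ETV4WT without replicate 2 of both constructs. The step between the constructs, log2 -0.22 ± 0.13 (adjusted p = 0.366), did not pass although their libraries did not overlap.

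SPRY1 was already high in PC3 and did not pass in any of the 3 comparisons. It had 84.9 and 92.8 CPM in libraries labelled ETV4AAA, 79.6 and 86.7 CPM in libraries labelled ETV4WT, and 84.5 and 81.5 CPM in eGFP libraries. The estimates over eGFP were log2 0.10 ± 0.12 with ETV4AAA (adjusted p = 0.695) and 0.00 ± 0.12 with ETV4WT (adjusted p = 1).

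SPRY3 was close to the detection limit in PC3, with 9 counts over both libraries labelled ETV4AAA, 50 counts over both labelled ETV4WT and 8 counts over both eGFP libraries. As levels these are 0.0822 and 0.120 CPM labelled ETV4AAA, 0.390 and 0.583 CPM labelled ETV4WT, and 0.101 and 0.0645 CPM with eGFP. ETV4WT was above both other groups without overlap, by log2 2.51 ± 0.45 over eGFP (adjusted p = 0.00192), and 2.29 without replicate 2 of both constructs (adjusted p = 0.0131). The difference between ETV4AAA and ETV4WT was -2.25 ± 0.44 (adjusted p = 0.00604). It lost its call without replicate 2 of both constructs (-2.30, adjusted p = 0.075) and without ETV4AAA replicate 1 (adjusted p = 0.0612). SPRY3 is a 22Rv1-high gene, and the 22Rv1 marker KLK3 was at 0 in all PC3 libraries.

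SPRED1 was the SPRED that moved in PC3, to 215 and 248 CPM in libraries labelled ETV4AAA and 227 and 283 CPM in libraries labelled ETV4WT, against 134 and 131 CPM in eGFP libraries. The constructs overlapped each other and both stood above eGFP. The log2 changes over eGFP were 0.80 ± 0.13 with ETV4AAA (adjusted p = 0.00537) and 0.94 ± 0.13 with ETV4WT (adjusted p = 0.000368), and 0.70 with ETV4AAA and 0.86 with ETV4WT without replicate 2 of both constructs. SPRED2 had 91.5 and 95.0 CPM labelled ETV4AAA, 105 and 118 CPM labelled ETV4WT, and 96.8 and 94.8 CPM with eGFP. SPRED3 lay between 7.51 and 10.1 CPM in all PC3 libraries. No PC3 comparison of SPRED2 or SPRED3 passed.

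IL17RD had 27.9 and 29.8 CPM in PC3 libraries labelled ETV4AAA, 19.6 and 22.7 CPM in those labelled ETV4WT, and 18.5 and 19.5 CPM in eGFP libraries. It was the one member that passed over eGFP with ETV4AAA (log2 0.60 ± 0.14, adjusted p = 0.0406) and not with ETV4WT (0.15 ± 0.14, adjusted p = 0.477). The difference between the constructs, log2 0.45 ± 0.14, missed the threshold (adjusted p = 0.0694). The call over eGFP was lost without replicate 2 of both constructs (0.55, adjusted p = 0.0979), without ETV4AAA replicate 2 alone (adjusted p = 0.214), and when PC3 was fitted by itself (adjusted p = 0.0986).

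PHLDA1 had 176 and 197 CPM in PC3 libraries labelled ETV4AAA, 208 and 249 CPM in those labelled ETV4WT, and 148 and 144 CPM in eGFP libraries, again with no overlap. ETV4WT passed at log2 0.65 ± 0.12 (adjusted p = 0.00219, and 0.60 without replicate 2 of both constructs), and ETV4AAA did not, at 0.36 ± 0.12 (adjusted p = 0.154). IER3 spread widely within both constructs, with 13.3 and 8.61 CPM labelled ETV4AAA and 22.3 and 12.1 CPM labelled ETV4WT, against 17.9 and 19.3 CPM with eGFP. Its changes over eGFP, log2 -0.76 ± 0.29 with ETV4AAA (adjusted p = 0.223) and -0.11 ± 0.29 with ETV4WT (adjusted p = 0.835), did not pass. Without the low-count filter, IER3 was called lower with ETV4AAA than with eGFP (log2 -0.72, adjusted p = 0.0184) and than with ETV4WT (log2 -0.72, adjusted p = 0.0134). The difference between the constructs, uncalled with the filter at log2 -0.65 (adjusted p = 0.2), was also called without ETV4WT replicate 2 (-1.02, adjusted p = 0.039).

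The PC3 calls with ETV4AAA over eGFP rest on both eGFP libraries. None of the 4 members passed without eGFP replicate 1, where adjusted p was 0.127 for SPRY2, 0.066 for SPRY4, 0.0803 for SPRED1 and 0.327 for IL17RD. Without eGFP replicate 2, adjusted p was 0.0837 for SPRY2, 0.0597 for SPRY4, 0.0917 for SPRED1 and 0.257 for IL17RD. In those fits 213 and 218 of all genes were called, against 858. The 5 calls with ETV4WT over eGFP held in each fit that left out 1 library.

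**Figure D2:**
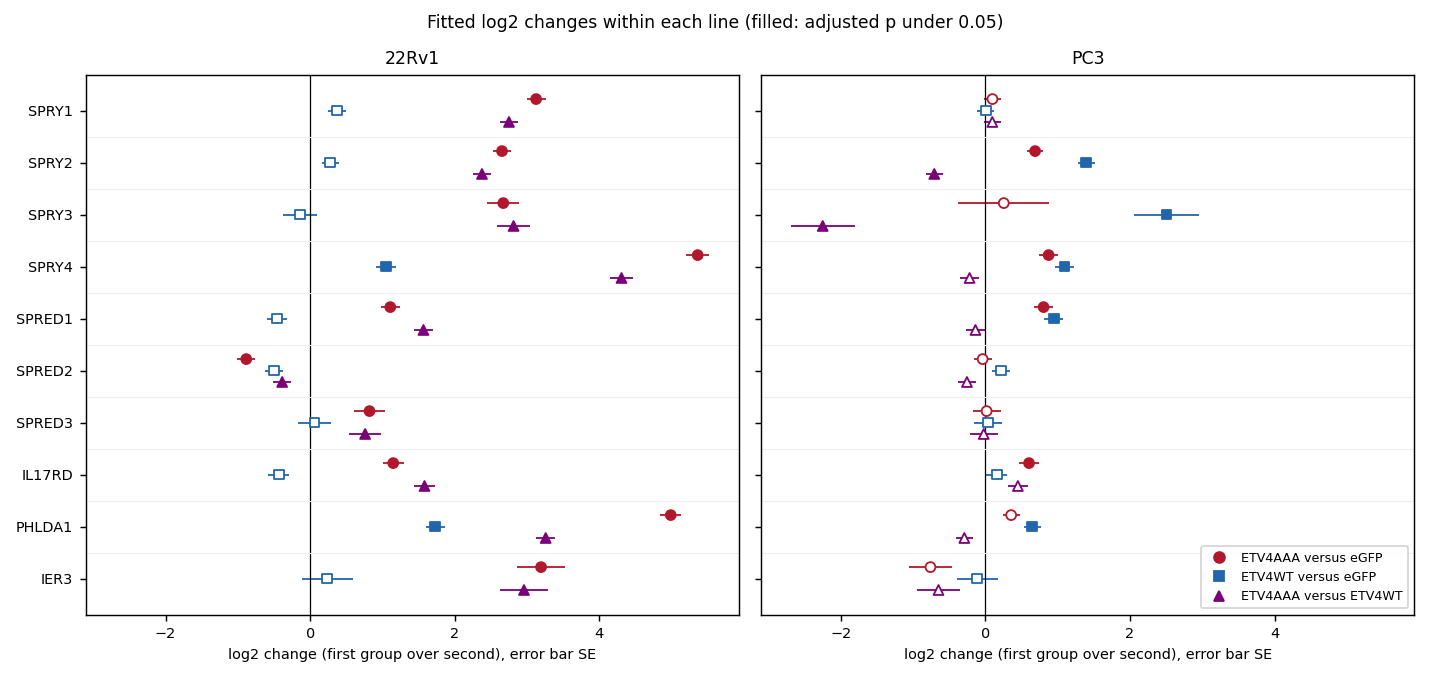
Log2 fold change ± SE of each gene in the 6 comparisons within a line, 22Rv1 left of PC3; filled points passed an adjusted p under 0.05 and open points did not. SPRY4 and PHLDA1 lie at 5.36 and 4.99 with ETV4AAA over eGFP in 22Rv1, and no change in PC3 exceeds 2.51.

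The 22Rv1 and PC3 lines differed in these genes before any ETV4 was added. With the eGFP vector, 8 members were lower in 22Rv1 than in PC3 and SPRY3 and IL17RD were higher, where 70.9% of all genes were called between the lines, 34.9% higher and 36% lower. PHLDA1 had 3.18 and 3.13 CPM in 22Rv1 eGFP libraries, against 148 and 144 CPM in PC3 eGFP libraries (log2 -5.53 ± 0.15, adjusted p = 5.64e-11). The differences of SPRY4, IER3 and SPRY1 were -4.22 ± 0.15, -3.90 ± 0.34 and -3.72 ± 0.13. The SPRED genes and SPRY2 stood closer between the lines. The differences of SPRED1 and SPRED3 were -2.43 ± 0.14 and -2.37 ± 0.21, and those of SPRED2 and SPRY2 were -1.18 ± 0.13 and -1.16 ± 0.12. SPRY3 was higher in 22Rv1 by 4.73 ± 0.37, from 8 counts over both PC3 libraries. IL17RD was higher by 0.52 ± 0.14 (adjusted p = 0.00657), a difference that missed the threshold without PC3 eGFP replicate 1 (adjusted p = 0.0612) and was 0.86 with upper-quartile scaling, which moved the median of all genes to 0.32.

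Across the 6 groups, the 22Rv1 ETV4AAA libraries took a different place in the order of levels for different members. IL17RD and SPRY3 were higher in 22Rv1 ETV4AAA libraries than in any other group, at 60.3 ± 7.80 and 14.5 ± 0.381 CPM (SD, n = 2). SPRY2, at 108 ± 8.58 CPM there, was barely apart from the PC3 libraries labelled ETV4WT. Its lower 22Rv1 ETV4AAA library had 101.9 CPM, and the higher of those PC3 libraries had 101.7 CPM. The order of these groups was not tested. For SPRY4 the 22Rv1 ETV4AAA libraries, at 457 ± 50.1 CPM, overlapped the PC3 libraries labelled ETV4WT at 441 ± 5.64 CPM. SPRY1, SPRED1 and PHLDA1 stayed below every PC3 group, at 54.8 ± 0.291, 53.1 ± 4.59 and 100.3 ± 5.28 CPM. SPRED2 was lower in 22Rv1 ETV4AAA libraries than in any other group, at 22.8 ± 0.713 CPM. IER3, at 11.4 ± 3.17 CPM, overlapped the PC3 libraries labelled ETV4AAA, at 10.95 ± 3.31 CPM.

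Per length of exon, which allows genes to be set beside each other, the leading member changed with the construct in 22Rv1. SPRY4 led in ETV4AAA libraries at 69.7 ± 7.63 CPM per kb, followed by SPRY2 at 35.5 ± 2.82. SPRY2 led in ETV4WT libraries at 6.84 ± 0.0857 CPM per kb, and SPRED2 led in eGFP libraries at 8.18 ± 0.157 CPM per kb, ahead of SPRY2 at 5.64 ± 0.00954. In PC3, SPRY4 led in all 3 groups, at 57.8 ± 2.61 CPM per kb labelled ETV4AAA, 67.2 ± 0.859 labelled ETV4WT and 31.5 ± 0.379 with eGFP, and SPRY3 was last.

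Summed per length, the 4 Sprouty genes stood at 128 and 113 CPM per kb in 22Rv1 ETV4AAA libraries, 12.4 and 12.9 in ETV4WT libraries and 9.20 and 9.15 in eGFP libraries. SPRY4 made up 57.7% of that sum with ETV4AAA, 27.8% with ETV4WT and 18.5% with eGFP, whereas SPRY2 made up 29.5% with ETV4AAA, 54.2% with ETV4WT and 61.5% with eGFP. In PC3 the Sprouty sum was 102 and 98.7 CPM per kb labelled ETV4AAA, 121 and 122 labelled ETV4WT and 64.9 and 65.3 with eGFP. Of the 22Rv1 ETV4AAA libraries, replicate 1 was thus above every PC3 library and replicate 2 within the range of the PC3 construct libraries.

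The SPRED sum in 22Rv1 was lower with ETV4WT than in the other groups, and its make-up differed most with ETV4AAA. The sum was 11.9 and 10.8 CPM per kb with ETV4AAA, 7.72 and 8.80 with ETV4WT, and 11.5 and 11.4 with eGFP. SPRED1 made up 56.5% with ETV4AAA, 26.4% with ETV4WT and 26.0% with eGFP, and SPRED2 39.0% with ETV4AAA, 70.0% with ETV4WT and 71.5% with eGFP. In PC3 the SPRED sum was 45.5 and 49.8 CPM per kb labelled ETV4AAA, 49.4 and 58.6 labelled ETV4WT, and 36.4 and 35.8 with eGFP.

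**Figure D3:**
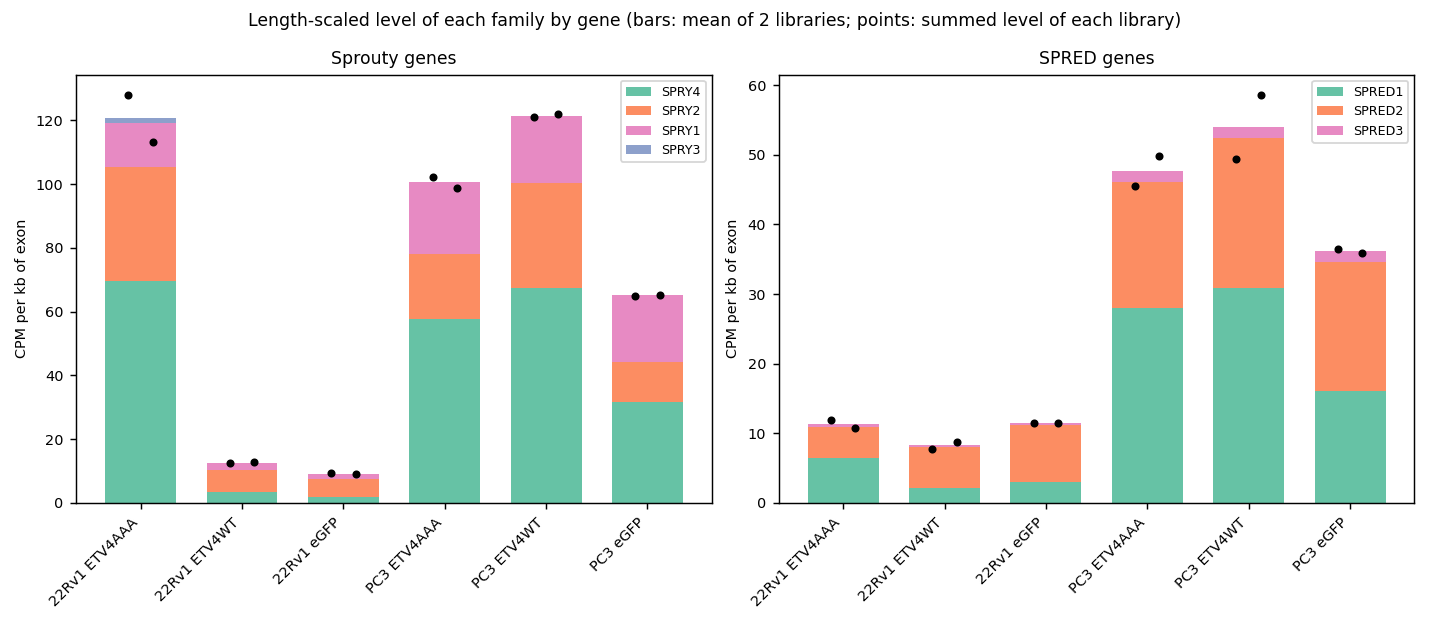
Summed levels of the 4 Sprouty genes and of the 3 SPRED genes, in CPM per kb of exon, in the 6 groups; bars are means of 2 libraries split by gene and points are the libraries' sums. In 22Rv1 the Sprouty sum is 128 and 113 with ETV4AAA and under 13 with the other constructs, while the SPRED sum stays between 7.72 and 11.9.

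Whether the change with a construct differed between the lines was tested by an interaction term, the change over eGFP in 22Rv1 minus that in PC3. Mean ETV4 in 22Rv1 was 335.5 CPM with ETV4AAA and 435 CPM with ETV4WT, against 28.1 CPM with eGFP. In PC3 it was 166 CPM labelled ETV4AAA and 163 CPM labelled ETV4WT, against 121 CPM with eGFP. The term therefore cannot separate the line from the rise in ETV4. For ETV4AAA, 7 members passed, where 16.2% of all genes were called, 9.48% positive and 6.73% negative. Of these, 6 were positive, meaning a larger rise in 22Rv1, namely PHLDA1 at 4.63 ± 0.18 (adjusted p = 2.03e-08), SPRY4 at 4.49 ± 0.20, IER3 at 3.96 ± 0.44, SPRY1 at 3.03 ± 0.17, SPRY3 at 2.42 ± 0.71 and SPRY2 at 1.97 ± 0.16. SPRED2 was negative at -0.85 ± 0.18 (adjusted p = 0.0063). SPRY3, with 8 and 9 counts in the PC3 groups, passed narrowly (adjusted p = 0.0379) and lost its call in 7 of the 8 fits that left out 1 of its libraries (adjusted p from 0.0536 to 0.254). SPRED1 at 0.30 ± 0.19 (adjusted p = 0.314), IL17RD at 0.55 ± 0.20 (adjusted p = 0.0922) and SPRED3 at 0.80 ± 0.29 (adjusted p = 0.0845) did not pass. SPRED3 did pass without PC3 ETV4AAA replicate 1 (1.04, adjusted p = 0.0294) and without 22Rv1 ETV4AAA replicate 2 (1.04, adjusted p = 0.0499).

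For ETV4WT, 5 members differed between the lines, where 12.5% of all genes were called, 4.92% positive and 7.57% negative. SPRED1 was at -1.40 ± 0.19 (adjusted p = 0.000564), SPRY2 at -1.12 ± 0.16 (adjusted p = 0.00101), SPRY3 at -2.65 ± 0.51 (adjusted p = 0.00568) and SPRED2 at -0.71 ± 0.18 (adjusted p = 0.0213), all less positive in 22Rv1 than in PC3. PHLDA1 was at 1.08 ± 0.18 (adjusted p = 0.00202), with the larger rise in 22Rv1. The SPRED2 call was lost without PC3 eGFP replicate 1 (adjusted p = 0.0894), PC3 eGFP replicate 2 (adjusted p = 0.112) or PC3 ETV4WT replicate 2 (adjusted p = 0.0699). SPRY4, which rose with ETV4WT by log2 1.05 in 22Rv1 and 1.09 in PC3 over very different control levels, had an interaction of -0.04 ± 0.19 (adjusted p = 0.961). IL17RD, at -0.59 (adjusted p = 0.082), passed with upper-quartile factors (-0.78, adjusted p = 0.0364) and without PC3 ETV4WT replicate 1 (-0.69, adjusted p = 0.0459). All 12 calls of an interaction held without replicate 2 of both PC3 constructs.

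**Figure D4:**
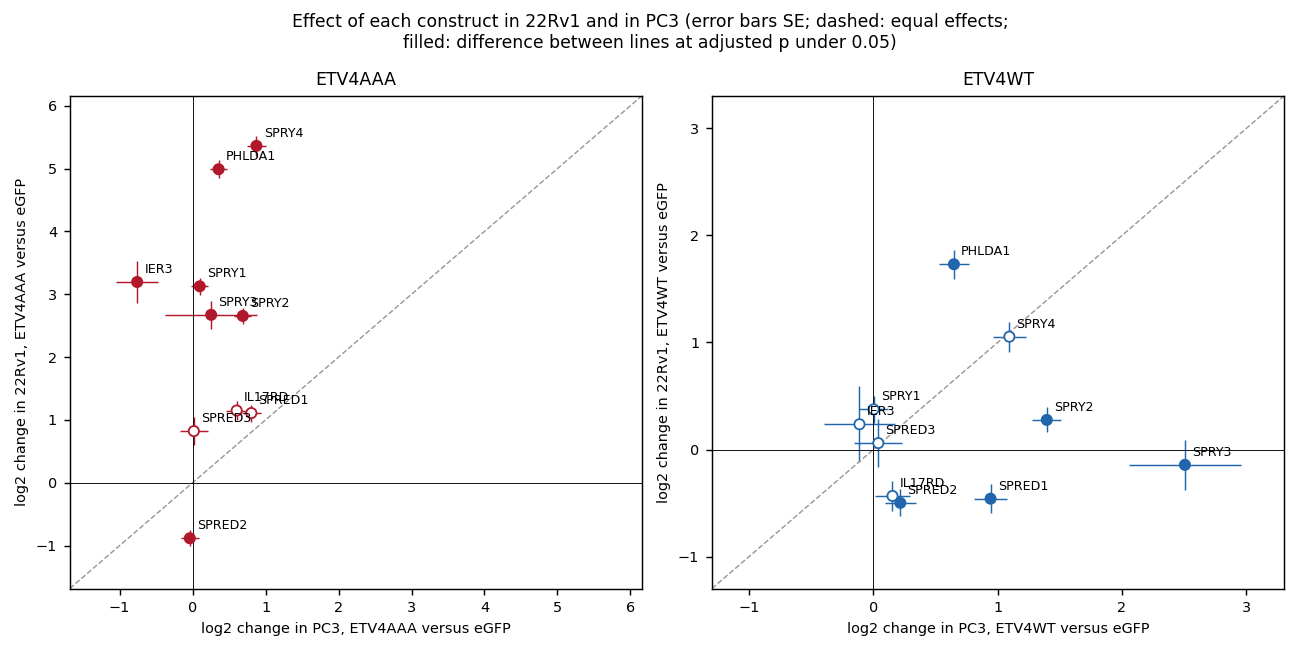
Log2 change over eGFP in 22Rv1 set against that in PC3 for each gene, with ETV4AAA left of ETV4WT and bars of ± SE; filled points differed between the lines at an adjusted p under 0.05, the dashed line marks equal changes, and the panels have different ranges. With ETV4AAA most members lie far to the 22Rv1 side, up to 5.36 in 22Rv1 against 0.87 in PC3 for SPRY4, and with ETV4WT SPRY4 lies on the line.

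Other genes of the pathway were followed in 3 lists. Of 18 genes that ERK signalling is known to induce, 7 rose and 7 fell with ETV4AAA over eGFP in 22Rv1, where 17.4% of all genes were called higher and 14.4% lower, with a median log2 change of 0.51 against 0.00 for all genes. The ERK phosphatases DUSP6, DUSP4 and DUSP5 rose there by 5.99 ± 0.14, 5.22 ± 0.13 and 3.17 ± 0.14. DUSP6, the phosphatase specific to ERK, had 848 and 873 CPM with ETV4AAA, 37.4 and 38.2 CPM with ETV4WT, against 12.7 and 14.4 CPM with eGFP. ETV5, the PEA3 relative of ETV4, fell by 2.11 ± 0.14 on the log2 scale, and the immediate early factor EGR1 fell by 1.84 ± 0.15. With ETV4WT in 22Rv1, 3 of the 18 rose and 2 fell, where 1.06% of all genes were called higher and 0.439% lower, with log2 changes of 2.27 ± 0.12 for DUSP4, 1.48 ± 0.12 for DUSP6 and -1.24 ± 0.13 for ETV5.

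In PC3, 4 of the 18 rose in libraries labelled ETV4AAA, with a median log2 change of 0.21, where 2.45% of all genes were called higher. In those labelled ETV4WT 11 rose and 2 fell, with a median of 0.76, where 12.7% of all genes were called higher and 10.7% lower. HBEGF, an EGF receptor ligand, had 45.8 and 41.9 CPM labelled ETV4AAA, 80.3 and 86.7 CPM labelled ETV4WT, and 14.8 and 14.0 CPM with eGFP. ETV5 rose there with ETV4WT by 0.76 ± 0.12 (adjusted p = 0.000923). DUSP6 rose by 0.48 ± 0.12 labelled ETV4AAA (adjusted p = 0.0422) and by 0.66 ± 0.12 labelled ETV4WT (adjusted p = 0.00167).

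Of 26 receptors and components of the cascade from receptor to ERK, 6 rose and 2 fell with ETV4AAA over eGFP in 22Rv1, a share close to the 31.8% called over all genes. FGFR1, a receptor whose signalling Sprouty and IL17RD proteins restrain, had 215 and 181 CPM with ETV4AAA, 13.1 and 15.6 CPM with ETV4WT, against 16.4 and 12.4 CPM with eGFP, a rise of log2 3.78 ± 0.22 over eGFP (adjusted p = 1.24e-07). The HGF receptor MET fell by 1.78 ± 0.16 on the log2 scale. In 22Rv1 with ETV4WT, edgeR's test called 0 of the 26, with 1 at an unadjusted p under 0.05, and DESeq2 also called 0. In PC3, 1 rose and 1 fell in libraries labelled ETV4AAA and 3 rose and 3 fell in those labelled ETV4WT. Over all genes, 3.69% were called with ETV4AAA and 23.4% with ETV4WT in PC3, and the list's ETV4WT share was close to that of all genes.

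Of 14 Sprouty and SPRED partners and other inhibitors of the pathway, 3 rose and 1 fell with ETV4AAA in 22Rv1, a share somewhat below the 31.8% called over all genes. The risers were CAV1, a scaffold protein of caveolae that binds Sproutys, at log2 1.80 ± 0.20, the EGF receptor inhibitor ERRFI1 at 1.03 ± 0.13, and the receptor-degrading protein LRIG1 at 1.19 ± 0.19. With ETV4WT in 22Rv1, edgeR's test called 0 of the 14, with 3 at an unadjusted p under 0.05, and DESeq2 called 0. In PC3, 3 rose in libraries labelled ETV4AAA and 5 rose and 2 fell in those labelled ETV4WT, where 2.45% of all genes were called higher with ETV4AAA, and 12.7% higher and 10.7% lower with ETV4WT. ERRFI1 was among both, with 233 and 266 CPM labelled ETV4AAA, 556 and 699 CPM labelled ETV4WT, and 124 and 122 CPM with eGFP.

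Among the 10 members, deviations from each line's mean log2 CPM ran most closely together for SPRY4 and PHLDA1 (Pearson r = 0.98 over 12 libraries) and for SPRY4 and SPRY1 (r = 0.97). SPRED2 ran against all other members, from r = -0.39 with SPRED1 to -0.85 with PHLDA1. These values describe 12 libraries that share 6 groups, and the 22Rv1 ETV4AAA libraries carry much of the spread.

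By the same measure, among 11293 other genes with a mean of at least 5 CPM, the closest to SPRY4 were LAMB3, a laminin chain (r = 0.996), PLK2, a polo-like kinase (r = 0.995), and BHLHE40, a transcriptional repressor (r = 0.995). Without the 22Rv1 ETV4AAA libraries, r over the other 10 was 0.950, 0.951 and 0.944. The closest to SPRY2 were the adenylate cyclase ADCY1 (r = 0.993), the thyroglobulin gene TG (r = 0.990) and the Schlafen gene SLFN5 (r = 0.990), at 0.965, 0.952 and 0.954 without those libraries. LAMB3 showed the pattern at a larger size, with 700 and 538 CPM in 22Rv1 ETV4AAA libraries, 9.32 and 10.7 CPM with ETV4WT, against 4.57 and 2.72 CPM with eGFP. TG was scarce in 22Rv1 and abundant in PC3, at 0.288 and 0.237 CPM in 22Rv1 ETV4AAA libraries, against 375 and 332 CPM in PC3 libraries labelled ETV4AAA.

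All members are protein-coding in GENCODE 29, on GRCh38. SPRY1 (ENSG00000164056) lies on chromosome 4 from 123396795 to 123403760, SPRY2 (ENSG00000136158) on chromosome 13 from 80335976 to 80340951, SPRY3 (ENSG00000168939) on chromosome X from 155767812 to 155782459, and SPRY4 (ENSG00000187678) on chromosome 5 from 142310427 to 142326455. SPRED1 (ENSG00000166068) lies on chromosome 15 from 38252326 to 38357249, SPRED2 (ENSG00000198369) on chromosome 2 from 65310851 to 65432637, and SPRED3 (ENSG00000188766) on chromosome 19 from 38388421 to 38399587. IL17RD (ENSG00000144730) lies on chromosome 3 from 57089982 to 57170306, PHLDA1 (ENSG00000139289) on chromosome 12 from 76025447 to 76033932, and IER3 (ENSG00000137331) on chromosome 6 from 30743199 to 30744554. The exons of PHLDA1 and IER3 overlap antisense genes, and without a stated strand setting reads of the pair cannot be told apart. The antisense rows held few counts beside them, at most 5 per group for those at PHLDA1 and 1 to 8 per group for IER3-AS1. SPRY4-AS1 lies within the SPRY4 locus without shared exons and had 320 counts over both 22Rv1 ETV4AAA libraries and 81 over both eGFP libraries, against 39986 and 1082 for SPRY4.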

How the data were processed

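Polyadenylated RNA of 12 libraries was sequenced on an Illumina NextSeq instrument, per the labels' protocols. The submitters' processing notes name FastQC 0.11.9, STAR 2.5.3a and the build GRCh38. No source used here states how reads were assigned to genes, with what strand setting or annotation. The authors deposited raw counts for 58302 Ensembl genes, and 99.55% of the identifiers were found in GENCODE 29.

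Counts were analysed in R 4.3.3 with edgeR 4.0.16. Filtering by expression per group kept 23238 genes, libraries were scaled by TMM, and a quasi-likelihood model gave each group its own mean, with all 12 libraries in the fit. Benjamini-Hochberg adjustment ran over all genes tested, with calls at an adjusted p under 0.05. A standard error is the log2 change divided by the square root of F. Two-sided tests covered 6 comparisons within a line, the control vectors of the lines, and 2 interactions. The fit left 6 residual degrees of freedom, at a biological coefficient of variation of 0.149. The fit was checked on simulated counts for PC3 ETV4WT over eGFP. There, 70.8% of 96 true 2-fold rises and 100% of 94 true 4-fold rises were called, with 14 false calls. Changes below 2-fold were not simulated. CPM use TMM-scaled totals, and CPM per kb divide by the length of merged GENCODE exons.

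Alternatives took size factors from DESeq2 or the upper quartile, dropped the low-count filter, used the test of DESeq2 1.42.0, added a replicate block, fitted each line alone, left out replicate 2 of both PC3 constructs, or left out each library in turn. All members are named. From each other list up to 3 called genes with the lowest adjusted p per comparison were eligible for naming, and DUSP6, ETV5, EGR1 and MET are also given elsewhere, chosen after their values were seen. KLK3, HOXB13, AXL, CD44, CAV1, CAV2 and VIM are markers. The nearest patterns are given for the 2 members called in most comparisons. The members and lists were chosen with earlier results of these data known. Promoter windows are from RefSeq, GRCh38.p14.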

Additional observations from a re-analysis of the deposited data

Results flagged for a closer look

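Each member below changed differently over eGFP in 22Rv1 than in PC3, by the interaction term of edgeR's quasi-likelihood test (22Rv1 minus PC3, log2, n = 2 libraries per group). With ETV4AAA the difference was 4.63 for PHLDA1, 4.49 for SPRY4, 3.96 for IER3, 3.03 for SPRY1, 2.42 for SPRY3, 1.97 for SPRY2 and -0.85 for SPRED2. With ETV4WT it was 1.08 for PHLDA1, -0.71 for SPRED2, -1.12 for SPRY2, -1.40 for SPRED1 and -2.65 for SPRY3.

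SPRY2 and SPRY3 carried opposite signs for the constructs, positive with ETV4AAA and negative with ETV4WT. SPRED2 was negative with both and PHLDA1 positive with both. The constructs share the eGFP libraries of each line. The SPRY3 values rest on 8 eGFP counts and 9 ETV4AAA counts in PC3. ETV4 itself rose over eGFP by log2 3.58 ± 0.37 with ETV4AAA and 3.95 ± 0.37 with ETV4WT in 22Rv1, and was at 0.46 ± 0.33 and 0.43 ± 0.33 in PC3, where it did not pass. The part of that difference in these interactions was not tested.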

How the results depend on the processing

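Of 560 values of single members under alternatives other than leaving out a library, 533 kept their direction and their side of the threshold, and 323 of 331 called values stayed called. Leaving out each library in turn kept 237 of 268 called values. Calls were also gained, 3 under the other alternatives and 5 on leaving out a library. No change of sign concerned a call. The replicate block lost 1 member call, SPRED2 between 22Rv1 ETV4AAA and ETV4WT (log2 -0.38, adjusted p = 0.0611), and changed no other; its largest relative shift in genes called was to 3658 (2903 without it), in the ETV4WT interaction. Replicate deviations correlated at 0.494 between the PC3 constructs and from -0.149 to 0.212 in the other pairs, so the numbers were not taken as pairs. Signs changed for SPRED2 with ETV4AAA over eGFP in PC3 (0.0402 with DESeq2 size factors and with DESeq2, 0.00074 with upper-quartile factors) and for the ETV4WT interaction of SPRED3 (-0.0432 and -0.0431 with these, -0.17 with upper-quartile factors, -0.090 unfiltered). They also changed for SPRY1 between PC3 ETV4AAA and ETV4WT (-0.014 with upper-quartile factors), and for IER3 with ETV4WT over eGFP in PC3 (0.034 with those factors, 0.00081 unfiltered). Without replicate 2 of both PC3 constructs, the values were 0.36 for IER3 with ETV4WT and -0.018 for SPRY3 with ETV4AAA over eGFP, -0.00060 for SPRY1 and 0.0081 for SPRED3 between the constructs, and -0.16 for SPRED3 and -0.13 for IER3 in the ETV4WT interaction. Leaving out 1 library moved uncalled values across zero within these ranges. In PC3 with ETV4AAA over eGFP, SPRED3 ran from -0.21 to 0.19 and SPRY3 from -0.037 to 0.61. In PC3 with ETV4WT over eGFP, SPRED3 ran from -0.033 to 0.11, SPRY1 from -0.057 to 0.064 and IER3 from -0.62 to 0.27. Between the PC3 constructs, SPRY1 ran from -0.0050 to 0.16, SPRED3 from -0.25 to 0.13 and SPRED1 from -0.29 to 0.033. In 22Rv1 with ETV4WT over eGFP, SPRY3 ran from -0.40 to 0.10 and SPRED3 from -0.012 to 0.13. In the ETV4WT interaction, SPRED3 ran from -0.069 to 0.099, IER3 from -0.028 to 0.86 and SPRY4 from -0.24 to 0.095.

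Genes called over all tested moved more. Without the low-count filter, which tests 42400 genes, PC3 ETV4AAA over eGFP had 2152 calls (858 with it), 22Rv1 ETV4WT over eGFP 904 (348) and the ETV4WT interaction 4436 (2903). With PC3 fitted alone, ETV4AAA gave 466 calls over eGFP and 1657 over ETV4WT (2550 in the joint fit). Without replicate 2 of both PC3 constructs, the constructs differed in 1341 genes and 1 member, against 2. Leaving out 1 library gave 213 to 2253 genes and 0 to 4 members in PC3 with ETV4AAA over eGFP, 2553 to 6265 genes with ETV4WT over eGFP (5434), and 1648 to 1887 genes and 1 to 3 members between the PC3 constructs. It gave 119 to 325 genes and 1 to 3 members in 22Rv1 with ETV4WT over eGFP, 3437 to 4172 between the 22Rv1 constructs (5455), 2317 to 4685 in the ETV4AAA interaction (3766) and 1425 to 4342 in the ETV4WT interaction. Upper-quartile factors moved the split of higher against lower calls to 3724 and 1661 for PC3 ETV4WT over eGFP (2958 and 2476 with TMM), 414 and 2018 between the PC3 constructs (848 and 1702), 9917 and 6767 between the control lines (8105 and 8377), and 731 and 2264 in the ETV4WT interaction (1144 and 1759), and the median of all genes to 0.12, -0.08, 0.32 and -0.16 in that order. Unless its construction shows it, the cause of each shift was not tested. With n = 2, the spread limits these calls more than counting error, except for SPRY3 in PC3.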
